A study of Mus musculus with 5 samples.

Results

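The 30 genes described here encode proteins that copy DNA in S phase, from the origin recognition factor Orc1 and the Mcm2-7 helicase to the clamp Pcna and the nucleotide enzymes Rrm1, Rrm2 and Tyms. They were taken by name from a table of read counts for 54532 genes, measured by RNA-seq in 5 mouse lung tumours. All 30 names were found once, and all 30 passed the filter on low counts, as did 17906 genes in total. No member passed the test of a difference between the treatment groups. The median member spanned 1.56-fold from the lowest to the highest tumour. The widest members were Rrm2, 4.28-fold apart within the LSN group, and Cdt1, 2.72-fold apart within the vehicle group.

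DNA replication starts with licensing, in which Orc1, Cdc6 and Cdt1 load the ring-shaped helicase formed by Mcm2 to Mcm7 onto origins before S phase. Cdc45 and the GINS proteins then join the ring and make it an active helicase, and primase, polymerases, the sliding clamp and its loaders copy the strands behind it. Transcription of many of these genes is driven by E2F factors, which the retinoblastoma protein holds back in resting cells and which are released in small cell lung cancer, a fast-growing neuroendocrine lung cancer that commonly loses that protein.

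The tumours came from a mouse model of small cell lung cancer, were collected at necropsy and frozen, and carry the genotype label RPP, which the labels do not expand. The groups were 2 tumours labelled vehicle and 3 labelled LSN, all of the same genotype. The title of the series speaks of inhibiting Aurora A, a kinase of the mitotic spindle; the labels give no dose or duration, nor the age or sex of the animals, nor whether each tumour came from a separate animal. The p-values set the difference between groups against the spread between these tumours, which may be partly technical. Any tumours from the same animal would not be independent. The labels call the samples lung tumours, while the series speaks of primary tumour cells; they were taken here as tumour pieces.

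Total counts were 17439049 to 19766604 per tumour, and single members had between 127 reads (Orc1 in vehicle replicate 1) and 13571 reads (Rrm2 in LSN replicate 3). Levels are given as CPM, the reads of a gene relative to the size of its library, scaled by TMM, a correction for library composition. All 12 neuroendocrine markers were present in every tumour, with summed levels of 2605 and 7478 CPM with vehicle and 5579 to 9299 CPM with LSN. The 14 markers of normal lung epithelium summed to 6971 and 9300 CPM with vehicle and to 419 to 2075 CPM with LSN, and 11 of them were lowest in the LSN tumours without overlap. The same held for 8 of 10 endothelial markers, while 1 of the 10 had a log2 fold change (LSN minus vehicle) above 0. All 10 together summed to 528 and 694 CPM with vehicle and to 188 to 666 CPM with LSN, with overlap. None of these epithelial or endothelial markers was at 0 in any tumour. The sums of 10 fibroblast markers were 799.9 and 1656 CPM with vehicle and 470 to 886 CPM with LSN, those of 10 macrophage markers 221 and 519 against 376 to 554 CPM, and those of 8 B cell markers 101 and 284 against 40.2 to 162 CPM. The 12 T and NK cell markers summed to 9.99 and 26.2 CPM with vehicle and 5.14 to 26.3 CPM with LSN, with Ncr1 and Gzmb at 0 in at least 1 tumour, and the 6 neutrophil markers to 5.32 and 27.3 against 3.10 to 8.41 CPM, with Retnlg and Ly6g likewise. In such tissue pieces, fewer cells of a type and less RNA per cell cannot be told apart. The part of these differences in the levels of the replication genes was not tested.

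Promoter windows from RefSeq (build GRCm38.p6), running from 250 bases before to 50 bases after the start of each gene, were found for 26 of the 30 members, all but Mcm4, Gins1, Gins2 and Dscc1. They were searched on both strands for the E2F words TTTCCCGC, TTTCGCGC, TTTGCCGC and TTTGGCGC. Among the members, 11 of 26 (42.3%) held at least 1 of these words, as did 13 of 45 other replication genes (28.9%) and 704 of 27025 genes with a window (2.60%). The CCAAT word was in the windows of 19 of 26 members (73.1%), 24 of 31 mitotic genes (77.4%) and 20 of 45 other replication genes (44.4%), against 41.1% of all genes. TTTGAA, the core of the element that times transcription to G2 and mitosis, was in 3 of 26 members (11.5%) and 20.2% of all genes, whereas 23 of 31 mitotic genes (74.2%) held it and 1 of those 31 held an E2F word. A match is a description of the letters, and binding was not measured here.

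The windows of 5 members are shown because they carry the shared E2F words, in capitals, in different places. Mcm3, Mcm5 and Mcm6 are 3 of the members that were higher in every LSN tumour, Cdt1 is a member that varied widely within both groups, and Rfc3 is one whose LSN tumours were nearly equal. Mcm3 lies at chr1:20820263-20820562 on the minus strand, Mcm5 at chr8:75109259-75109558 on the plus strand, Mcm6 at chr1:128359656-128359955 on the minus strand, Cdt1 at chr8:122567765-122568064 on the plus strand and Rfc3 at chr5:151651159-151651458 on the minus strand, all read 5′ to 3′ along the gene.
Mcm3: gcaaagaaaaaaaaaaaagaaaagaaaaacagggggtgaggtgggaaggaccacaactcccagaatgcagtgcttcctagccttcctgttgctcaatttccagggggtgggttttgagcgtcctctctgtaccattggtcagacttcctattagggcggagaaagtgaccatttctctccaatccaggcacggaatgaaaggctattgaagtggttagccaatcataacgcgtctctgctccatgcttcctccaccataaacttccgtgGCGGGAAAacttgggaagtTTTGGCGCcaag
Mcm5: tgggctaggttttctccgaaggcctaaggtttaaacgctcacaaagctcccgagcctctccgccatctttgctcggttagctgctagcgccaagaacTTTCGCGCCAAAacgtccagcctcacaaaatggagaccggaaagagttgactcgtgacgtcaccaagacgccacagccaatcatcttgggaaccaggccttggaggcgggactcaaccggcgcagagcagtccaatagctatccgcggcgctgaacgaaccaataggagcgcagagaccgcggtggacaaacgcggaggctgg
Mcm6: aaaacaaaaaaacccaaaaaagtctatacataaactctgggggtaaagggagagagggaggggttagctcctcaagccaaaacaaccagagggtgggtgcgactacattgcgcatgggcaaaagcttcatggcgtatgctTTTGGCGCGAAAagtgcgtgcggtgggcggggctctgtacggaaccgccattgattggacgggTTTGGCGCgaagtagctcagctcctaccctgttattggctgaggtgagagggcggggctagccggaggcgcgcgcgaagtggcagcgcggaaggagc
Cdt1: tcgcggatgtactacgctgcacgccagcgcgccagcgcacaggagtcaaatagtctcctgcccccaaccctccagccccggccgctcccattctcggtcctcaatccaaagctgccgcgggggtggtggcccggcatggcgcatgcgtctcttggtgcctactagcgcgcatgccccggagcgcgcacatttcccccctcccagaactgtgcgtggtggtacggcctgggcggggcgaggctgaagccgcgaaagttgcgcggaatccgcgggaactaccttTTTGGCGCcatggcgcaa
Rfc3: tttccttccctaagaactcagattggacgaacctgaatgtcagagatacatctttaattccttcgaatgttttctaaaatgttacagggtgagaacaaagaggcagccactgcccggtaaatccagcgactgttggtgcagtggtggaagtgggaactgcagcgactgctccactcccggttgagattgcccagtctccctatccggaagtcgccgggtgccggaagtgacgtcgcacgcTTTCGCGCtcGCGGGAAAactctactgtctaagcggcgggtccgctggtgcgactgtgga
In Mcm5 a pair of words overlaps on opposite strands, the first starting at position -153 from the start site and the second at -149, and Mcm6 has such a pair at -110 and -106 with another word at -47. Mcm3 carries its words after the start site, at 20 and 39, and Cdt1 carries one at 33. Of the other members with a higher level in every LSN tumour, Prim1, Tyms and Chaf1a held none of the words in this window.

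LSN was compared with vehicle to ask whether the treatment goes with another level of the replication genes. By the quasi-likelihood test of edgeR, 0 of 30 members passed an adjusted p of 0.05, and neither did any of the 17906 genes tested (0%). At an unadjusted p under 0.05 there were 0 members, against 4.27% of all genes tested, and the smallest p of a member was 0.087, for Prim1. With DESeq2, which the submitters used, 0 members were called, against 0.539% of the genes to which it gave an adjusted p. The log2 fold change (LSN minus vehicle) was above 0 for 18 members and below 0 for 12, with a median of 0.18 beside 0.03 over all genes tested, and it ran from -0.30 for Mcm7 to 0.47 for Chaf1b. Both ends moved with single tumours: without vehicle replicate 2 Mcm7 was at -0.0035 and Chaf1b at 0.24, and without vehicle replicate 1 they were at -0.54 and 0.75. Leaving out vehicle replicate 1 gave a median of 0.02 for the members and 0.07 for all genes tested, so that the members were then the lower. Leaving out LSN replicate 3 gave 0.04 beside 0.01, and leaving out vehicle replicate 2 gave 0.25 beside 0.09.

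**Figure D1:**
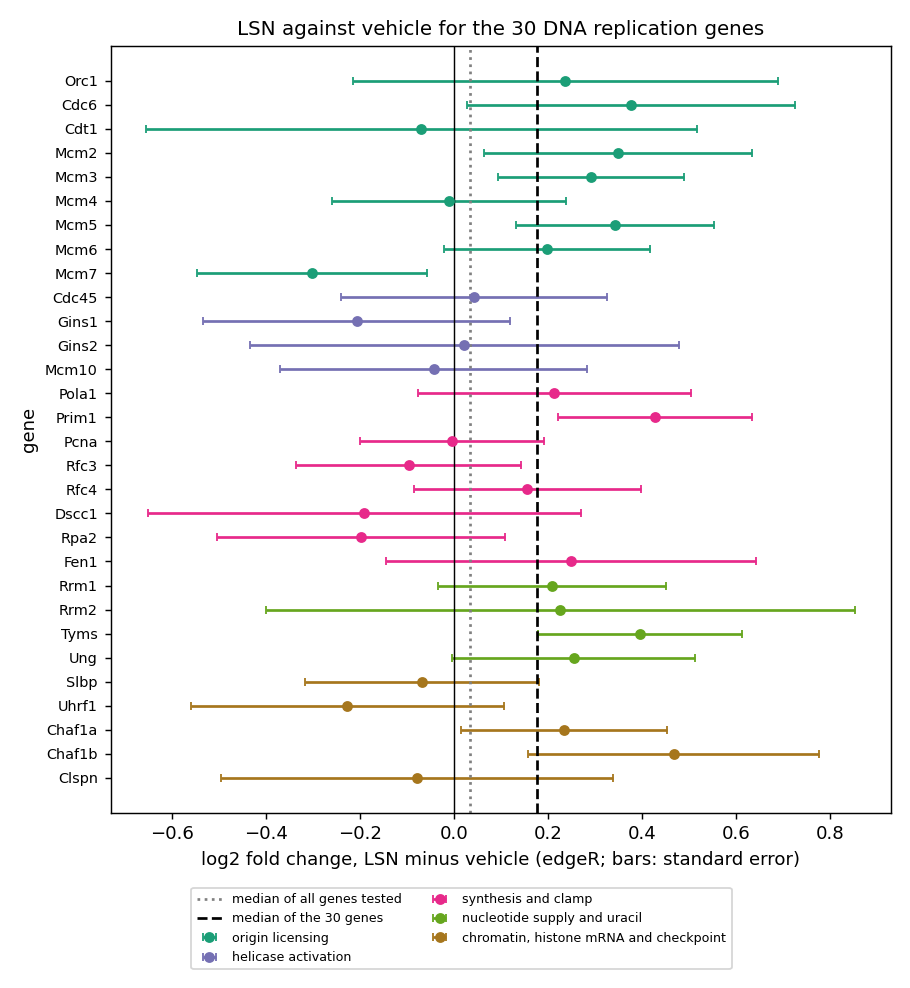
Log2 fold change of each of the 30 members, LSN minus vehicle, from edgeR, with bars of 1 standard error and colours for the role. The points lie between -0.30 (Mcm7) and 0.47 (Chaf1b) around a median of 0.18, beside a median of 0.03 for all genes tested.

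For 6 members the lowest LSN value exceeded the higher vehicle value. These were Mcm3, Mcm5, Mcm6, Prim1, Tyms and Chaf1a, and 8.48% of all genes tested had this pattern. No member was below both vehicle tumours in every LSN tumour, a pattern shown by 10.4% of all genes tested. When libraries were scaled by total counts without TMM, Mcm6 and Chaf1a left the first group and Pcna entered the second. With that scaling, 5.64% of all genes tested had the first pattern and 12.7% the second. Without vehicle replicate 2, for which only the other vehicle tumour had to be exceeded, the count of 6 became 15, and the share of all genes became 20.3%. Without vehicle replicate 1, 8 members were below the remaining vehicle tumour in every LSN tumour, as were 26.3% of all genes. All 6 had an adjusted p of 0.9997 in edgeR.

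Among the licensing factors, Cdc6 is an ATPase that helps to load the helicase. It was at 66.8 and 112 CPM with vehicle and at 142, 85.4 and 122 CPM with LSN. Its groups overlapped, with the lowest value in vehicle replicate 1, and the log2 fold change was 0.38 ± 0.35 (SE). It was 0.06 without vehicle replicate 1 and 0.80 without vehicle replicate 2. Cdt1, the partner of Cdc6 in loading the helicase, was at 58.9 and 160 CPM with vehicle and at 141, 53.1 and 119 CPM with LSN. High and low tumours stood in both groups, and the 2 vehicle tumours alone differed 2.72-fold. Orc1, the origin-binding subunit regulated through the cell cycle, was at 6.82 and 11.6 CPM with vehicle and at 10.6, 9.79 and 12.2 CPM with LSN. Orc1 was lowest in vehicle replicate 1, as were Cdc6 and 10 further members. Geminin (Gmnn), the inhibitor of Cdt1, was at 87.2 and 66.1 CPM with vehicle and at 52.1, 73.0 and 98.8 CPM with LSN. The ratio of Cdt1 to Gmnn reads, which does not depend on the scaling between libraries, was 0.675 and 2.43 with vehicle and 2.71, 0.727 and 1.201 with LSN. It spanned 4.02-fold over the 5 tumours, while its group means were 1.55 ± 1.24 (SD, n = 2) and 1.55 ± 1.04 (SD, n = 3).

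The 6 genes of the Mcm2-7 ring encode related ATPases that work as a single hexamer with 1 copy of each. Mcm3 was at 280 and 246 CPM with vehicle and at 329, 333 and 303 CPM with LSN. The groups did not overlap, with a log2 fold change of 0.29 ± 0.20 (SE). Mcm5 was at 266 and 238 CPM with vehicle and at 284, 353 and 321 CPM with LSN, with a log2 fold change of 0.34 ± 0.21 (SE). Its lowest LSN value was above the higher vehicle value by less than the gap between the vehicle tumours. Mcm6 was at 368 and 374 CPM with vehicle and at 493, 403 and 381 CPM with LSN. The 2 vehicle tumours were nearly equal, LSN replicate 3 was barely above them, and LSN replicate 1 was highest.

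Mcm2, Mcm4 and Mcm7 overlapped between groups. Mcm2 was at 536.5 and 381 CPM with vehicle and at 576, 704 and 474 CPM with LSN. Mcm2 was highest in LSN replicate 2 and lowest in vehicle replicate 2. Mcm7 ran the other way, at 274 and 400 CPM with vehicle and 300, 264 and 256 CPM with LSN, so that vehicle replicate 2 was highest. The ratio of Mcm2 to Mcm7 reads was 1.95 and 0.954 with vehicle and 1.92, 2.66 and 1.85 with LSN, lowest in vehicle replicate 2. Of the exonic bases of Mcm7, 12.6% are shared with other genes, among them Ap4m1, and the libraries do not keep the strand. Mcm4 was at 203 and 190 CPM with vehicle and at 181, 242 and 162 CPM with LSN, with the highest and the lowest value of the 5 both in the LSN group.

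Levels of the 6 subunit genes were compared per kilobase of the deposited gene length, which counts every exon of all isoforms. The highest exceeded the lowest 1.40-fold in vehicle replicate 1, 1.71-fold in vehicle replicate 2 and 2.10-fold, 1.69-fold and 1.81-fold in LSN replicates 1, 2 and 3. Mcm4 was lowest in 4 tumours, at 45.05 to 56.4 CPM per kilobase, and Mcm7 in LSN replicate 2, at 59.7 CPM per kilobase. Mean levels over the 5 tumours ran from 54.4 ± 8.31 CPM per kilobase (SD, n = 5) for Mcm4 to 86.6 ± 11.1 CPM per kilobase (SD, n = 5) for Mcm6. Mcm2, Mcm3 and Mcm5 lay between them at 76.8, 79.4 and 73.3 CPM per kilobase, closer to each other than their SDs of 17.2, 9.64 and 11.4. Dividing by the length of the longest coding transcript in GENCODE M21 in place of the deposited length widened the range to between 2.55-fold and 3.39-fold and placed Mcm2 highest in 4 tumours, with Mcm4 lowest in all 5. The order of the subunits with the highest levels thus depended on the length used.

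**Figure D2:**
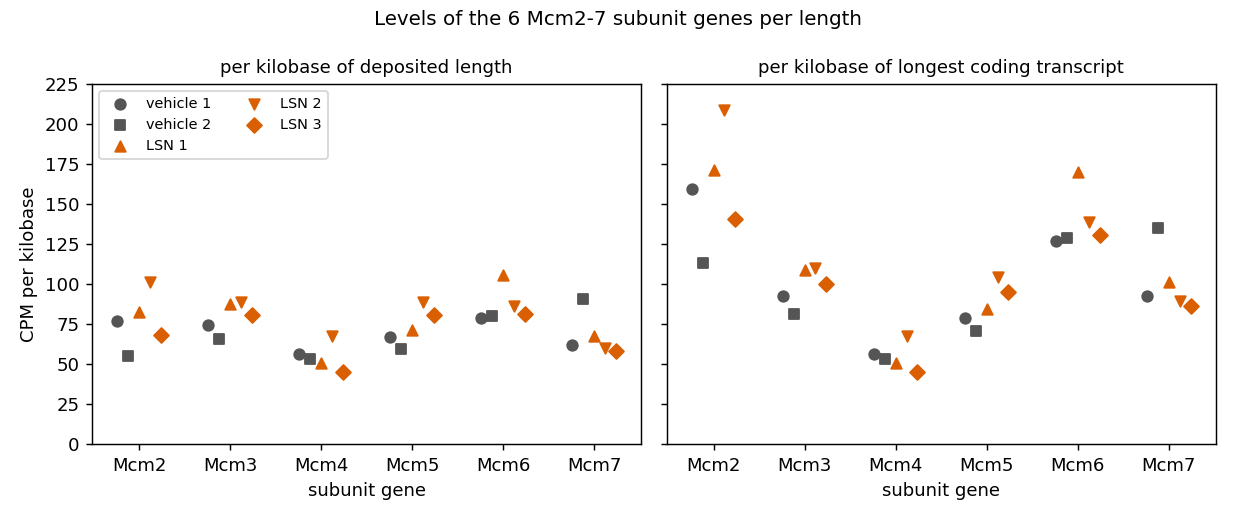
CPM per kilobase of the 6 Mcm2-7 subunit genes in each tumour, with the deposited gene length (left) and the longest coding transcript (right); grey marks are vehicle, orange marks LSN. Mcm4 lies lowest on the right in all 5 tumours, and Mcm2 moves from 54.8 to 101 CPM per kilobase on the left to 113 to 209 on the right.

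Genes that turn the loaded ring into a helicase showed no common direction, with 2 of 4 members above 0 and a median log2 fold change of -0.01. Cdc45, a subunit of the active helicase, was at 62.0 and 72.0 CPM with vehicle and at 58.9, 60.6 and 87.6 CPM with LSN. Gins1, a GINS subunit, was at 30.2 and 26.6 CPM with vehicle and 28.8, 18.2 and 26.8 CPM with LSN. Both overlapped between the groups, and LSN replicate 2 had the lowest Gins1 value. Gins2, another GINS subunit, was at 17.7 and 35.0 CPM with vehicle and at 35.1, 18.0 and 27.2 CPM with LSN. Vehicle replicate 1 and LSN replicate 2 were the low tumours, and the fold between the highest and lowest tumour was 1.98 within vehicle and 1.95 within LSN. Exons of Gse1 cover 67.3% of the exonic bases of Gins2, so its reads cannot be fully told from those of that neighbour, which was at 81.5 ± 20.5 CPM (SD, n = 2) with vehicle and 112 ± 23.5 CPM (SD, n = 3) with LSN. Mcm10, which helps to start the helicase, was at 32.9 and 59.0 CPM with vehicle and 41.2, 44.9 and 47.7 CPM with LSN, with every LSN tumour between the 2 vehicle tumours.

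Among the genes of DNA synthesis, Prim1, the catalytic subunit of primase, was at 121 and 149 CPM with vehicle and at 176, 190 and 179 CPM with LSN. The 3 LSN tumours were close together and all above vehicle, and the log2 fold change was 0.43 ± 0.21 (SE). Pola1, the polymerase subunit that extends the primers made by Prim1, was at 173 and 124 CPM with vehicle and at 145, 219 and 153 CPM with LSN. Its groups overlapped, and the ratio of Prim1 to Pola1 reads, at 0.700 and 1.1997 with vehicle against 1.21, 0.869 and 1.17 with LSN, overlapped as well. Pcna, the sliding clamp, was the steadiest member, at 602 and 605 CPM with vehicle and at 583, 625 and 599 CPM with LSN. Its highest value exceeded its lowest 1.07-fold, where the median over all genes tested was 2.48-fold.

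Rfc3 and Rfc4, subunits of the clamp loader, had ranges of 75.3 to 106 CPM and 55.2 to 74.9 CPM over the 5 tumours. Eif4a2 shares 12.65% of the exonic bases of Rfc4 and was itself at 339 to 714 CPM. Reads of Rfc4 thus cannot be fully told from those of that neighbour. For Rfc3 both ends of the range were vehicle tumours, and the 3 LSN tumours lay within 83.7 to 86.0 CPM. Dscc1, a subunit of the alternative clamp loader that acts in sister chromatid cohesion, was at 13.05 and 17.5 CPM with vehicle and at 16.3, 8.30 and 15.6 CPM with LSN. LSN replicate 2 stood below the others, and it was also the lowest tumour for Cdt1, Gins1 and Rrm2. Rpa2, a subunit of the single-strand binding complex, was at 91.2 and 139 CPM with vehicle and at 87.0, 87.9 and 127 CPM with LSN, with overlapping groups. Fen1, the nuclease that trims lagging-strand fragments, was at 9.13 to 13.9 CPM over the 5 tumours. Exons of Gm10143 and Tmem258 together cover 84.2% of its exonic bases. Fen1 spans bases 10199132 to 10204169 of chromosome 19 and Tmem258 starts at 10204014, so most of the shared bases lie in Gm10143. How the authors counted reads in shared bases is not given in the sources used here, so the level of Fen1 is uncertain.

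Nucleotide supply held both the widest member and one of the members without overlap. Rrm2, the small subunit of ribonucleotide reductase, which forms deoxynucleotides and is made mainly in S phase, was at 278 and 468 CPM with vehicle and at 423, 168 and 718 CPM with LSN. The lowest and the highest values were both in the LSN group, 4.28-fold apart, and the log2 fold change of 0.23 ± 0.63 (SE) had the largest standard error of the members. Rrm1, the large subunit of the same enzyme, was at 328 and 362 CPM with vehicle and 352, 358 and 486 CPM with LSN. Rrm1 thus spanned 1.48-fold, and the ratio of Rrm2 to Rrm1 reads ran from 0.469 in LSN replicate 2 to 1.48 in LSN replicate 3, with 0.846 and 1.29 with vehicle.

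Tyms, thymidylate synthase, was at 96.9 and 94.2 CPM with vehicle and at 109, 126 and 141 CPM with LSN. The vehicle tumours were nearly equal and all LSN tumours were above them, with a log2 fold change of 0.40 ± 0.22 (SE) and a p of 0.122 before adjustment in edgeR. Ung, which removes uracil from DNA, was at 41.2 and 41.6 CPM with vehicle and at 52.5, 54.9 and 40.9 CPM with LSN. LSN replicate 3 was the lowest of the 5 for Ung and the highest for Tyms, Rrm1 and Rrm2.

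**Figure D3:**
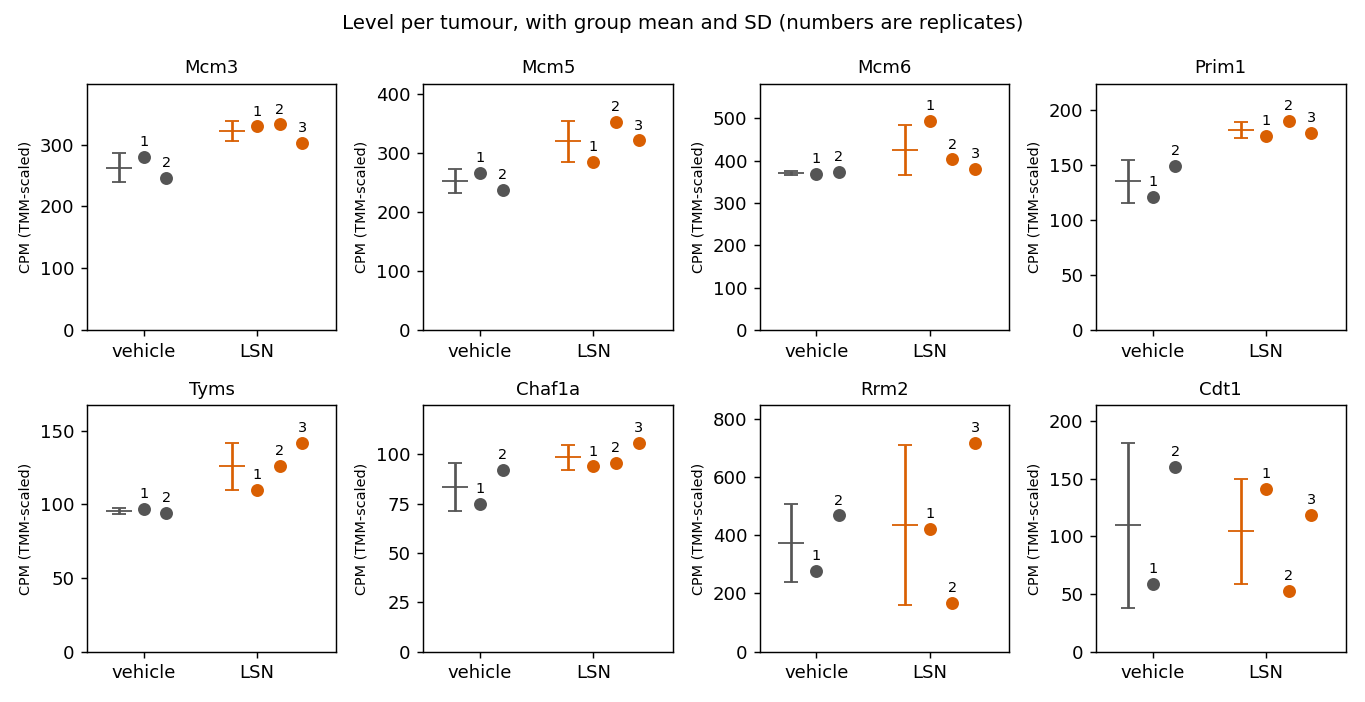
CPM in each tumour for the 6 members without overlap between groups and for Rrm2 and Cdt1, the members with the widest ranges; points are tumours numbered by replicate, and bars are the group mean and SD (n = 2 vehicle, n = 3 LSN). The 6 genes have all orange points above both grey points, whereas Rrm2 spans 168 to 718 CPM within the LSN group and Cdt1 58.9 to 160 CPM within the vehicle group.

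Of the genes that handle chromatin and the checkpoint at the fork, the subunits of chromatin assembly factor 1 were placed differently. Chaf1a was at 75.0 and 92.1 CPM with vehicle and at 93.8, 95.6 and 106 CPM with LSN. The lowest LSN value was just above the higher vehicle value. Ubxn6 covers 52.5% of the exonic bases of Chaf1a and was itself at 13.4 ± 3.28 CPM (SD, n = 2) with vehicle and 16.7 ± 0.827 CPM (SD, n = 3) with LSN, without overlap between the groups. Chaf1b was at 125 and 88.2 CPM with vehicle and at 115, 188 and 139 CPM with LSN. LSN replicate 2 was highest and vehicle replicate 2 lowest, with a log2 fold change of 0.47 ± 0.31 (SE), the largest of the members, and groups that overlapped.

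Uhrf1, which guides maintenance DNA methylation at the fork, was at 199 and 389 CPM with vehicle and at 285, 241 and 228 CPM with LSN. Both ends of its range were vehicle tumours, 1.95-fold apart. Slbp, which binds the stem-loop of histone mRNA, was at 155 and 217 CPM with vehicle and at 152, 185 and 195 CPM with LSN. Clspn, an adaptor that carries the checkpoint signal at stalled forks, was at 150 and 245 CPM with vehicle and at 131, 154 and 277 CPM with LSN. For both genes the LSN values ran from below the lower vehicle tumour to near or above the higher one.

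The spread within the vehicle group was then set beside the difference between groups. For 22 of 30 members the log2 gap between the vehicle tumours was larger than that between the group means, as it was for 65.0% of the genes with reads in both vehicle tumours. Vehicle replicate 2 was above vehicle replicate 1 for 22 members (73.3%), against 50.1% of all genes tested. The mitotic genes (28 of 36, 77.8%) and the regulators of S phase entry (9 of 12, 75%) had like shares. Lower shares, nearer that of all genes, were found for other replication genes (31 of 55, 56.4%) and fork repair and checkpoint genes (11 of 18, 61.1%). The 8 members that went the other way were Mcm2, Mcm3, Mcm4, Mcm5, Gins1, Pola1, Tyms and Chaf1b. The excess of vehicle replicate 2 was largest for Cdt1 (log2 difference 1.44), Gins2 (0.98) and Uhrf1 (0.96). Vehicle replicate 1 was the lowest of the 5 tumours for 12 members and the highest for 1, Gins1. LSN replicate 2 was the highest for 10 members and the lowest for 4, Cdt1, Gins1, Dscc1 and Rrm2. Over all genes tested, vehicle replicate 1 was the lowest for 16.4% and LSN replicate 2 the highest for 24.8%. The median member spanned 1.56-fold from the lowest to the highest tumour, against 2.48-fold for the median of all genes tested, which include many genes with few reads.

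**Figure D4:**
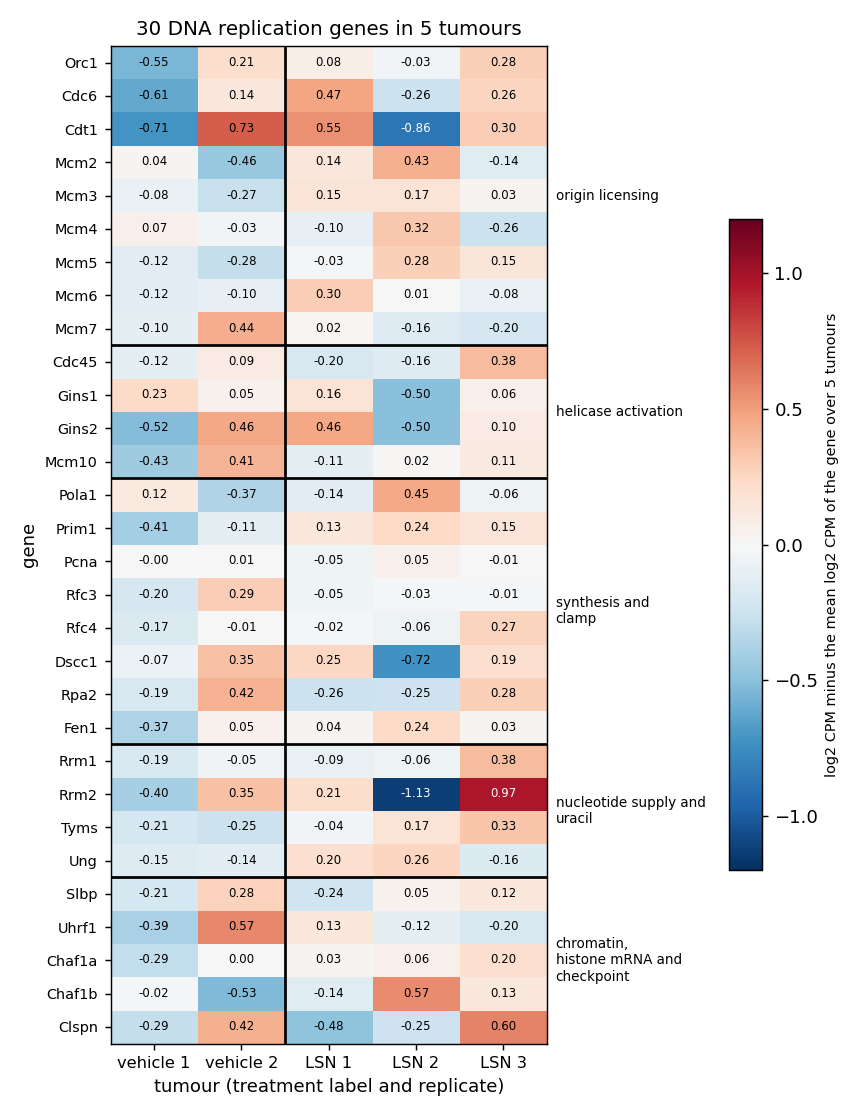
Log2 CPM of each member in each tumour minus the mean of that gene over the 5 tumours (printed in each cell; red above, blue below), grouped by role, with vehicle left of the vertical line. The columns of the 2 vehicle tumours differ from each other, and among the deepest cells are Rrm2 in LSN replicates 2 and 3, Cdt1 in both vehicle replicates and LSN replicate 2, and Dscc1 in LSN replicate 2.

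The replication genes were set beside other genes of the cell cycle. Among 55 further replication genes, 32 (58.2%) had a log2 fold change above 0, against 53.2% of all genes tested. Their median was 0.06, and 0 passed in edgeR (2 at an unadjusted p under 0.05). All LSN tumours were above both vehicle tumours for 10 of the 55 and below for 2. Over all genes tested these shares were 8.48% and 10.4%. The 10 were Rpa1, Pold2, Dnmt1, Dctpp1, Ticrr, Chtf8, Orc2, Gins4, Chtf18 and Lig1, with log2 fold changes from 0.16 for Lig1, the ligase that joins lagging-strand fragments, to 0.91 for Rpa1. The 2 were Orc4, an origin recognition subunit, at -0.52, and Pold4, a small polymerase delta subunit, at -0.44. Rpa1 and Pold2 lie on chromosome 11, where 25.8% of the genes tested were above both vehicle tumours in every LSN tumour. The median over these 55 genes was -0.04 with total counts in place of TMM, beside -0.05 over all genes tested. The 12 regulators of S phase entry had a median of 0.13, with 9 above 0, and none separated the groups. Their smallest p-values belonged to Rbl1, a relative of the retinoblastoma protein, with a log2 fold change of -0.61 ± 0.40 (SE), and E2f3, at -0.40 ± 0.33 (SE).

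The 36 mitotic genes, tied to the step that Aurora A serves, had a median log2 fold change of 0.25. Of these, 32 (88.9%) were above 0, against 53.2% of all genes tested. Only 3 of the 36 were higher in the LSN tumours without overlap, a pattern shown by 8.48% of all genes tested. In edgeR 0 passed, and 0 had a p under 0.05 before adjustment, against 4.27% of all genes tested. Hmmr, a spindle protein, was at 120 and 139 CPM with vehicle and at 199, 160 and 326 CPM with LSN. Cenpe, a kinetochore motor, was at 113 and 150.0 CPM with vehicle and at 185, 175 and 259 CPM with LSN. Both were highest in LSN replicate 3. LSN replicate 3 was the highest tumour for 34 of the 36. It was the highest for 8 of the 30 replication members, namely Orc1, Cdc45, Rfc4, Rrm1, Rrm2, Tyms, Chaf1a and Clspn. That share of 26.7% stood beside 20.4% of all genes tested. LSN replicate 3 was also the highest tumour for 25 of the 55 further replication genes (45.5%). The same tumour was highest for 10 of 18 genes of fork repair and the checkpoint (55.6%) and 5 of 12 regulators of S phase entry (41.7%). The mean log2 CPM of the members minus that of the mitotic genes was -0.64 in vehicle replicate 1 and -0.56 in vehicle replicate 2. In LSN replicates 1, 2 and 3 this difference was -0.54, -0.42 and -1.11. LSN replicate 3 was the lowest and the other LSN tumours were the highest, so the groups overlapped, with a difference of group means of -0.09. Without LSN replicate 3 that difference was 0.12, and the median of the mitotic genes was -0.03.

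**Figure D5:**
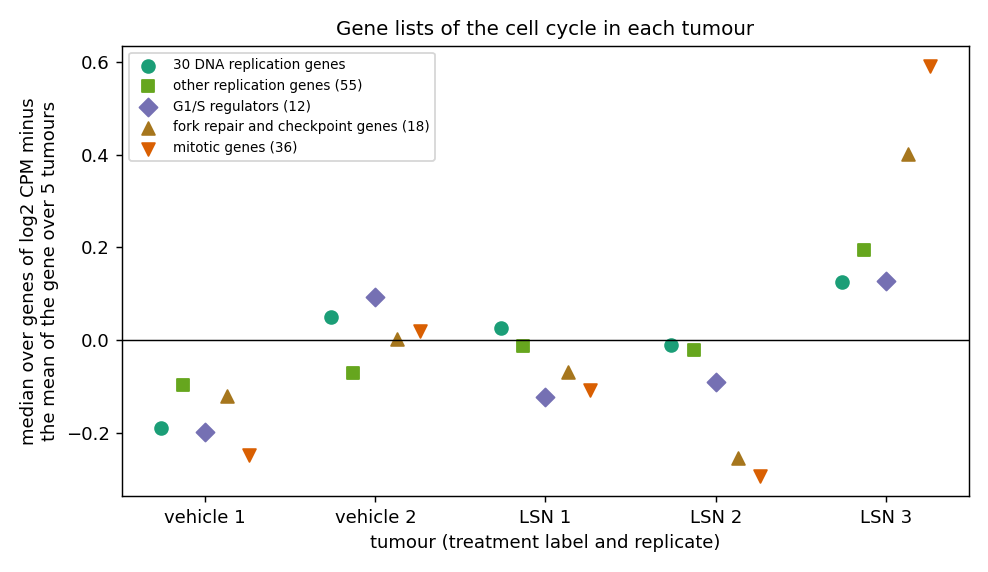
Median over each gene list of log2 CPM minus the mean of the gene over the 5 tumours, by tumour; each mark is 1 list. In LSN replicate 3 the mitotic genes stand at 0.59 and the 30 replication genes at 0.13, while in LSN replicate 2 they stand at -0.29 and -0.01.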

How the data were processed

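Per the labels' protocols, total RNA was made into libraries that do not keep the strand, and the authors mapped paired reads to mm10 with STAR and tested with DESeq2. The sources used here name neither the counting program nor any version. Deposited by the authors were raw read counts per gene, not normalized, with coordinates and gene lengths. The start and end of all 30 members matched GENCODE M21.

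LSN was compared with vehicle in R 4.3.3 with edgeR 4.0.16 (quasi-likelihood F test, robust), with TMM scaling, filterByExpr (minimum count 10, minimum total 15) and Benjamini-Hochberg adjustment over 17906 genes at 0.05, with 3 residual degrees of freedom. Mean log2 CPM of lists used a prior count of 2. For a single value, the smallest p that an exact permutation of 2 and 3 tumours allows is 0.1, so none was run. A count of 3 equals 0.159 to 0.167 CPM (counting error only). The test was checked on simulated counts.

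Alternatives were DESeq2 1.42.0, limma-voom 3.58.1, RLE scaling, total counts, no count filter, 1 CPM in 2 tumours, a non-robust fit, 0.5 as the prior count, and leaving out each tumour. All 30 members are named; of the mitotic, S phase entry and repair lists, the 2 genes with the smallest p, and every further replication gene that separated the groups. The members and lists were chosen with earlier results of these data known.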

Additional observations from a re-analysis of the deposited data

How the results depend on the processing

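No paired analysis was possible because no label pairs a vehicle with an LSN tumour. Across the 12 alternatives, 0 members passed the adjusted threshold in any. DESeq2 called 100 genes over the whole table, with 1218 at an unadjusted p under 0.05; edgeR called 0 (764 unadjusted) and limma-voom 0 (851 unadjusted). With a tumour left out, edgeR called 0 genes, and the lone vehicle tumour of 2 of these fits was assumed to vary like the LSN tumours. The median of the members ran from 0.024 to 0.25 with a tumour left out, that of the mitotic genes from -0.03 to 0.39, and the level difference from -0.23 to 0.12. Members above all vehicle tumours then numbered 7 to 15 (14.5% to 24.7% of all genes over these fits). Members below numbered 1 to 8 (15.8% to 26.3% of all genes). Fewer tumours must agree in these fits. The ends of a count and of its share can come from different fits. The 15 members above stood beside 20.3% without vehicle replicate 2, while 24.7% went with 9 members, without vehicle replicate 1. With total counts 1 member, Pcna, was below, against 12.7% of all genes. Of 360 alternative fold changes of members, 34 changed sign, in 15 members, 28 of them with a tumour left out. The others were Mcm4 and Pcna with DESeq2 (0.0040 and 0.0099), Pcna with RLE (0.0058), Mcm10 with limma-voom (0.019), and Cdc45 and Gins2 with total counts (-0.046 and -0.051). With a tumour left out, log2 fold changes ran from -0.087 to 0.67 for Orc1, -0.61 to 0.83 for Cdt1, -0.20 to 0.10 for Mcm4, -0.17 to 0.16 for Cdc45, -0.38 to 0.60 for Gins2, -0.39 to 0.44 for Mcm10, -0.0057 to 0.48 for Pola1, -0.032 to 0.014 for Pcna, -0.32 to 0.18 for Rfc3, -0.38 to 0.060 for Dscc1, -0.46 to 0.14 for Rpa2, -0.33 to 0.65 for Rrm2, -0.28 to 0.20 for Slbp, -0.62 to 0.34 for Uhrf1 and -0.48 to 0.32 for Clspn. Members that kept their sign moved too, as Cdc6 from 0.057 to 0.80, Mcm2 from 0.13 to 0.62, Mcm7 from -0.54 to -0.0035 and Chaf1b from 0.24 to 0.75. The cause of these shifts was not tested.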

Other observations

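The subunits of the single-strand binding complex RPA were placed differently. Rpa1, its largest subunit, was at 225.3 and 290.0 CPM with vehicle and at 455, 455 and 538 CPM with LSN, and its log2 fold change was 0.91 ± 0.23 (SE). In edgeR its p was 0.0096 before and 0.9997 after adjustment. All LSN tumours were well above both vehicle tumours, whereas Rpa2 overlapped between the groups and Rpa3, the smallest subunit, was at 57.4 and 40.4 CPM with vehicle and 32.9, 62.0 and 55.2 CPM with LSN. The ratio of Rpa1 to Rpa2 reads, chosen after these values were seen, was 2.47 and 2.08 with vehicle and 5.23, 5.18 and 4.24 with LSN. Pold2, a subunit of polymerase delta, was at 74.5 and 88.3 CPM with vehicle and 120, 111 and 145 CPM with LSN, and its p in edgeR was 0.041 before and 0.9997 after adjustment.

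Rpa1, Pold2 and Brca1 lie on chromosome 11. Of 1422 genes tested on that chromosome, 25.8% were above both vehicle tumours in every LSN tumour, against 6.98% of the genes elsewhere, and their median log2 fold change was 0.34 against 0.02. Cdc6 is the only one of the 30 replication genes there. The part of chromosome 11 in the values of Rpa1, Pold2, Brca1 and Cdc6, and of any other named gene on it, was not tested.

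The 18 genes of fork repair and the checkpoint had a median log2 fold change of 0.07, with 11 above 0. Among them Brca1 and Brca2, which act together in recombination, stood on opposite sides. They were the only genes of the 18 without overlap, 1 above and 1 below vehicle. Over all genes tested, 8.48% were above and 10.4% below without overlap. For Brca1, LSN replicate 2 was barely above vehicle replicate 2. Brca1 was at 85.1 and 107.1 CPM with vehicle and 125, 107.3 and 167 CPM with LSN, and Brca2 at 67.5 and 68.4 CPM with vehicle and 49.5, 52.6 and 38.1 CPM with LSN. Neither passed in edgeR (adjusted p = 0.9997 for both). Dnmt1, the maintenance methyltransferase that Uhrf1 recruits, was at 403 and 416 CPM with vehicle and 481, 527 and 928 CPM with LSN, while Uhrf1 overlapped between the groups. The ratio of Dnmt1 to Uhrf1 reads was 2.02 and 1.07 with vehicle and 1.69, 2.19 and 4.07 with LSN.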
